A study of Mus musculus with 12 samples.

Results

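The 10 genes described here encode enzymes and a transfer protein for the lipids of myelin, the membrane sheath that oligodendrocytes wrap around axons. They are *Aspa*, *Sptlc2*, *Degs1*, *Elovl1*, *Elovl7*, *Cers2*, *Fa2h*, *Ugt8a*, *Gal3st1* and *Gltp*, chosen by symbol from the 17161 genes listed on either diet, and all 10 were listed on both. Hypothalamus RNA came from 12 male C57BL/6J mice of 8 weeks in 4 groups of 3. WT (+/+) and *Gpr75-/-* mice stayed on a chow diet, and other WT and *Gpr75-/-* mice received a lard-based high-fat diet (HFD) for 2 weeks from 6 weeks of age. *Gpr75-/-* mice carry, in the germline, a frameshift made with CRISPR/Cas9 close to the start codon. Transcription of *Gpr75* is not removed by such an allele, and its mRNA is no check of the labels. *Gpr75* mRNA was at 16.7 CPM (counts scaled to a common library total) in WT and 24.6 CPM in *Gpr75-/-* mice on chow, and at 19.9 and 18.4 CPM on the HFD (ratios of 1.47 and 0.927).

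The values are the authors' means of each group, with no value for a single mouse. The authors' own standard errors and p-values were not used, so the spread between mice is not given, no difference between genotypes carries a test, and the bounds given after a ratio cover only the rounding of the deposited means to 2 decimals. A gene was compared with the other genes of its table where its mean normalized count over the 6 mice was at least 30, which held for 15657 genes on chow, for 15749 on the HFD and for all 10 enzyme genes. The normalized counts of an average mouse summed to 18280462 on chow and 19420111 on the HFD. Both tables were normalized separately, so levels are compared only within a diet. Genomic positions are those of the deposited tables, for which the submitters' processing notes name the build GRCm39.

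Myelin is unusually rich in galactosylceramide and its sulfated form, sulfatide. Their synthesis starts with the joining of serine and palmitoyl-CoA, continues through ceramides that carry very long, often 2-hydroxylated acyl chains, and ends with the addition of galactose and sulfate. Acetate for lipid synthesis can also be released in oligodendrocytes from N-acetylaspartate, a metabolite made by neurons. Bulk tissue RNA cannot tell fewer oligodendrocytes from less of an mRNA in each oligodendrocyte.

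On chow, 8 of the 10 genes had a lower group mean in *Gpr75-/-* mice than in WT mice, where 41.2% of all tested genes did. All 8 differed by more than the rounding, as 29.3% of tested genes did in that direction. The median difference of the 10 genes was -0.11 on the log2 CPM scale, and the median of all tested genes was 0. *Aspa* and *Fa2h* were lower by 1.2-fold or more, a size reached downward by 4.73% of tested genes. On the HFD all 10 group means were lower in *Gpr75-/-* mice, against 35.2% of tested genes, and 9 differed beyond rounding, against 23.4%. The median difference there was -0.13 and the mean of *Ugt8a* was past 1.2-fold, against 3.24% of tested genes, with rounding bounds on either side of it and with no gene past it at a pseudocount of 10 CPM. Both diets together, 8 of the 10 were lower beyond rounding on each, where 10% of the 15475 genes tested on both were, and 17.2% were lower on both at all. None of the 10 passed 1.2-fold on both diets, and 0.601% of the tested genes did. At 1.1-fold or more, 4 of the 10 were lower on chow and 5 on the HFD, against 14.4% and 10.5% of tested genes. At 1.5-fold none was lower on either diet, against 0.422% and 0.26%. The WT and *Gpr75-/-* mice of each diet are different animals, so the comparisons share no controls.

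**Figure D1:**
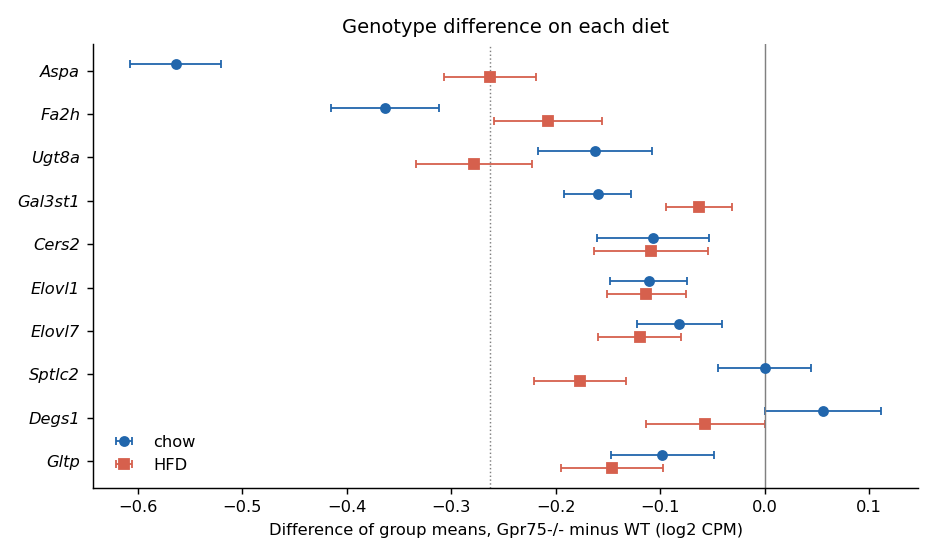
Difference of group means, *Gpr75-/-* minus WT, in log2 CPM (horizontal axis) for each gene (vertical axis) on chow (blue circles) and on the HFD (red squares). Bars are the rounding bounds of the deposited means, not replicate error, and the dotted line marks a 1.2-fold lower level. *Aspa* on chow lies farthest to the left at -0.56 and *Degs1* on chow farthest to the right at 0.06.

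Levels between genes were compared per kilobase of exon, as mean normalized counts over the 6 mice of a diet. Exon lengths were those of a basic set of transcripts. Over all annotated transcripts *Cers2* has 3676 exon bases instead of 2216, and *Elovl1* 2726 instead of 1941. Their levels per kilobase would then be lower, so their places in the order may depend on the set. *Degs1* had the highest level on chow, 1177 normalized counts per kilobase, followed by *Cers2* with 883, *Gltp* with 701 and *Fa2h* with 664. *Ugt8a* had 496, *Aspa* 388 and *Elovl1* 191. The lowest levels were those of *Elovl7* with 139, *Sptlc2* with 120 and *Gal3st1* with 112. On the HFD the order from *Degs1* (1382) to *Gal3st1* (111) was the same. With no values of single mice, it cannot be said which neighbors in this order differ beyond their spread.

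**Figure D2:**
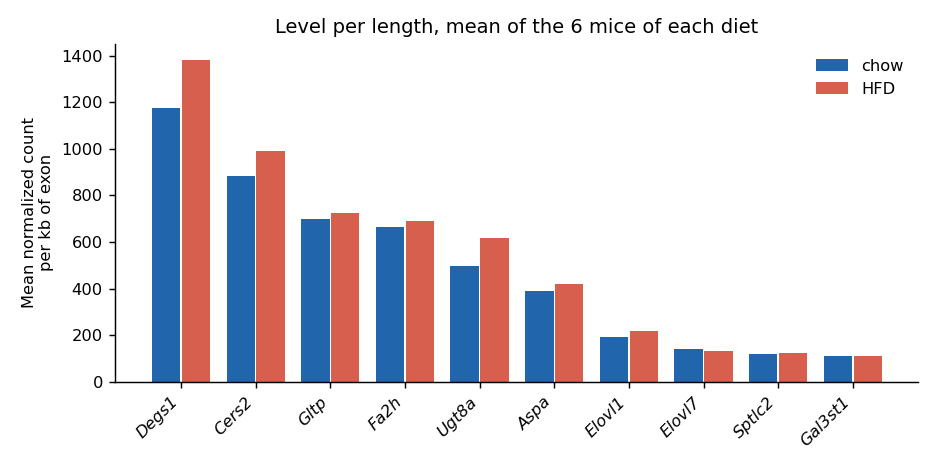
Mean normalized count per kilobase of exon (vertical axis) of each gene (horizontal axis), as the authors' mean over the 6 mice of the chow (blue) and HFD (red) tables, with no error available. *Degs1* stands highest and *Gal3st1* lowest on both diets.

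*Aspa* (chromosome 11, 73195818 to 73220422) encodes aspartoacylase, which cleaves N-acetylaspartate into acetate and aspartate. On chow its group mean was 46.6 CPM in WT and 31.5 CPM in *Gpr75-/-* mice, or 0.677 of the WT level (rounding bounds 0.656 to 0.697). Only 0.485% of tested genes had a difference as low. On the HFD it was 43.8 CPM in WT and 36.5 CPM in *Gpr75-/-* mice, a ratio of 0.833 (0.808 to 0.859) that lay just short of 1.2-fold, with bounds on either side of it. There 3.26% of tested genes were as low. *Nat8l*, the neuronal enzyme that makes N-acetylaspartate, was at 0.962 (0.926 to 1) on chow and 1 (0.963 to 1.04) on the HFD. *Slc13a3*, a plasma membrane carrier of N-acetylaspartate and other dicarboxylates, was at 0.955 (0.934 to 0.977) on chow and at 1.27 (1.24 to 1.30) on the HFD.

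The bases upstream of *Aspa* also differed in composition from those of the other enzyme genes. RefSeq promoter windows on GRCm38.p6 were matched by symbol for 9 of the 10 genes, in 13 windows, and the 250 bases before each start site were examined. The *Aspa* window had 38.8% G and C, no more than 10.3% of all 32851 windows, and 2 CpG dinucleotides. The windows of the other 8 genes had 54.0% to 76.8% G and C, and the median of all windows was 52.4%. The *Aspa* window is shown beside that of *Ugt8a*, a gene with 76.8% G and C, as the ends of this range. Capitals mark the SOX core letters ACAAT or their reverse complement ATTGT, which transcription factors of the SOX family can bind, and the GC box letters GGGCGG or CCGCCC. No letters can belong to a match of both motifs at full length, while matches of a motif to itself, on the same or the other strand, can overlap.
Aspa, chr11:73324638-73324887, minus strand: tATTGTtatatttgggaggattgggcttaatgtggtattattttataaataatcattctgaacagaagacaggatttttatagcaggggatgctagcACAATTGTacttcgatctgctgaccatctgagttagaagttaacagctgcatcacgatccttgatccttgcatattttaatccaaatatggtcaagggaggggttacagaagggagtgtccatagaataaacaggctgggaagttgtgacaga
Ugt8a, chr3:125938653-125938902, minus strand: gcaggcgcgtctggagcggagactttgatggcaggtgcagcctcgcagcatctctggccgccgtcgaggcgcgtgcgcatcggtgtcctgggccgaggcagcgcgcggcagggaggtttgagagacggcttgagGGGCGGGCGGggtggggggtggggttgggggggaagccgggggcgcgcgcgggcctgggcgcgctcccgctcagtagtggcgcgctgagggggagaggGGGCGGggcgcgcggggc
The *Aspa* window held 3 SOX core matches and no GC box, and the *Ugt8a* window 3 GC boxes and no SOX core. Across all windows 27.7% held the SOX core and 32.7% the GC box, and of the 13 windows of the enzyme genes 3 held the SOX core (*Aspa* and a pair of overlapping *Gal3st1* windows) and 7 the GC box. A match describes letters and does not show that a factor binds there.

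*Sptlc2* (chromosome 12, 87351832 to 87435129) and *Degs1* (chromosome 1, 182103337 to 182110369) act early in ceramide synthesis and are used by most cell types. *Sptlc2* encodes a catalytic subunit of serine palmitoyltransferase, the enzyme of the committed step. Its group means on chow were equal at 43.8 CPM, and on the HFD they were 43.8 CPM in WT and 38.8 CPM in *Gpr75-/-* mice, a ratio of 0.885 (0.858 to 0.912). The partner subunit *Sptlc1* was at 0.972 (0.944 to 1) on chow and at 1.06 (1.03 to 1.09) on the HFD. Of its other subunits, *Sptssa* was at 1 (0.967 to 1.03) on chow and 0.966 (0.934 to 1) on the HFD. *Sptssb* was at 1.06 (1.04 to 1.09) and 0.907 (0.890 to 0.925). *Degs1* encodes the desaturase that turns dihydroceramide into ceramide. It had 128 CPM in WT and 133 CPM in *Gpr75-/-* mice on chow, a ratio of 1.04 (1 to 1.08), and 149.6 and 143.8 CPM on the HFD, a ratio of 0.961 (0.924 to 1). Both *Degs1* differences are a single step of the deposited decimals, so neither direction is resolved. These 2 genes were the only ones of the 10 without a lower mean on both diets beyond rounding.

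*Elovl1* (chromosome 4, 118285290 to 118290150) and *Elovl7* (chromosome 13, 108350938 to 108422217) encode elongases that lengthen fatty acids, and *Elovl1* provides very long chains for sphingolipids. *Elovl1* had 21.0 CPM in WT and 19.4 CPM in *Gpr75-/-* mice on chow, a ratio of 0.926 (0.903 to 0.950), and 22.7 and 21.0 CPM on the HFD, a ratio of 0.925 (0.901 to 0.949). *Elovl7* was at 0.945 (0.919 to 0.972) on chow and at 0.920 (0.895 to 0.946) on the HFD, from 30.7 and 28.2 CPM in WT. Both were thus slightly lower on each diet. Of the other 4 elongases tested, *Elovl5* was at 1.08 (1.04 to 1.12) on chow and 1.04 (1 to 1.08) on the HFD. *Elovl4* was at 1 (0.964 to 1.04) and 0.963 (0.927 to 1), and *Elovl6* at 0.965 (0.931 to 1) on each diet. *Elovl2* was higher than WT on chow, at 1.26 (1.23 to 1.29), and lower on the HFD, at 0.924 (0.900 to 0.949).

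*Cers2* (chromosome 3, 95222102 to 95230910) encodes the ceramide synthase that attaches very long acyl chains. It had 110.0 CPM in WT and 102.1 CPM in *Gpr75-/-* mice on chow, a ratio of 0.928 (0.895 to 0.964). On the HFD it had 118.6 and 110.0 CPM, a ratio of 0.927 (0.893 to 0.963). Of the 5 ceramide synthases tested, *Cers2* had the highest level per kilobase on chow, where *Cers1*, *Cers4*, *Cers5* and *Cers6* had 132 to 302 normalized counts. Not divided by length, *Cers4* was higher, with a mean normalized count of 2230 against 1956 for *Cers2*. *Cers4* was at 0.926 (0.892 to 0.963) on chow and 1 (0.963 to 1.04) on the HFD, and *Cers6* at 0.938 (0.909 to 0.969) and 0.883 (0.855 to 0.911). *Cers6* was thus also below WT on both diets. Exons of *Cers2* share 144 bases with the antisense gene *6330562C20Rik* and 75 bases with *Setdb1* on the other strand in GENCODE M21, and those of *Elovl1* share 53 bases with *Cdc20*. The strand setting of the counting is not given in the sources used here, so reads from these bases may not be told apart.

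*Fa2h* (chromosome 8, 112071767 to 112120456) encodes fatty acid 2-hydroxylase, which makes the hydroxylated chains of galactosylceramide. Its group mean on chow was 102.1 CPM in WT and 79.4 CPM in *Gpr75-/-* mice, or 0.777 of the WT level (0.750 to 0.806), and 2.09% of tested genes were as low. On the HFD the means were 94.9 and 82.2 CPM, a ratio of 0.866 (0.836 to 0.898), and 5.45% of tested genes were as low. After *Aspa*, *Fa2h* was the gene of the 10 with the lowest ratio on chow.

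*Ugt8a* (chromosome 3, 125658920 to 125732268) encodes the transferase that adds galactose to ceramide, the committed step to galactosylceramide. It had 118.6 CPM in WT and 106.0 CPM in *Gpr75-/-* mice on chow, a ratio of 0.894 (0.861 to 0.928), and 11.4% of tested genes were as low. On the HFD it had 143.8 and 118.6 CPM, a ratio of 0.825 (0.793 to 0.857), with bounds that overlap those of *Aspa*, and 2.78% of tested genes were as low. *Ugcg*, which adds glucose to the same ceramide instead, was at 1.04 (1 to 1.08) on chow and at 0.960 (0.922 to 1) on the HFD. *Gal3st1* (chromosome 11, 3933636 to 3949326) encodes the sulfotransferase that turns galactosylceramide into sulfatide. It had 12.9 CPM in WT and 11.6 CPM in *Gpr75-/-* mice on chow, a ratio of 0.895 (0.876 to 0.915), and 11.8 and 11.3 CPM on the HFD, a ratio of 0.957 (0.937 to 0.978). The deposited means of *Gal3st1* thus lay below WT on both diets, by more on chow. *Galc*, the lysosomal enzyme that breaks galactosylceramide down, was at 0.972 (0.945 to 1) on chow and 0.944 (0.917 to 0.972) on the HFD, and *Arsa*, which removes the sulfate, at 1 (0.969 to 1.03) and 1.06 (1.03 to 1.097).

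*Gltp* (chromosome 5, 114807459 to 114829045) encodes a cytosolic protein that moves glycolipids between membranes. It had 69.1 CPM in WT mice on each diet, and 64.6 CPM on chow and 62.4 CPM on the HFD in *Gpr75-/-* mice. The ratios were 0.934 (0.903 to 0.967) and 0.904 (0.874 to 0.935).

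**Figure D3:**
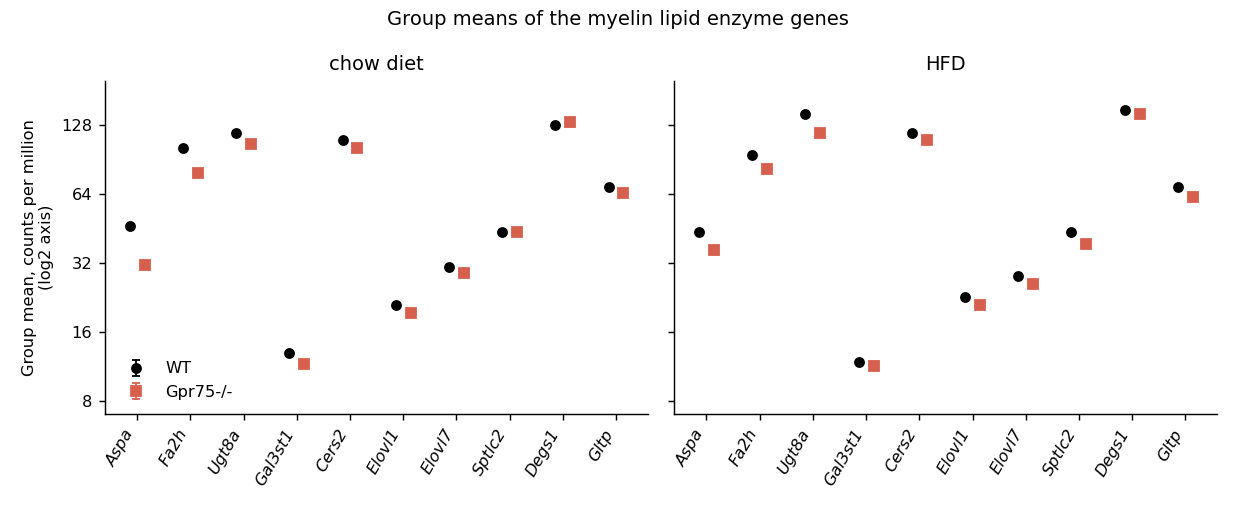
Authors' group means in CPM on a log2 axis (vertical) for each gene (horizontal) in WT (black circles) and *Gpr75-/-* mice (red squares) on chow (left) and on the HFD (right). Bars, shorter than the symbols, are rounding bounds. The gap between genotypes is widest for *Aspa* on chow, 46.6 against 31.5 CPM.

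The genotype difference on the HFD minus that on chow compares the diets for each gene, with rounding bounds and no test. It cannot show that a difference depended on diet, because the spread between mice is not given. *Aspa* had the highest value, 0.30 on the log2 CPM scale (0.21 to 0.39), at or above 94.2% of the 15475 genes tested on both diets. *Fa2h* (0.16, 0.05 to 0.26) and *Gal3st1* (0.10, 0.03 to 0.16) were also closer to WT on the HFD than on chow. *Sptlc2* (-0.18, -0.27 to -0.09) was equal to WT on chow and below it on the HFD. *Ugt8a* (-0.12, -0.23 to -0.01) was farther below WT on the HFD than on chow. The bounds of *Cers2*, *Elovl1*, *Elovl7*, *Gltp* and *Degs1* reached 0. The median over the 10 genes was -0.02. Across all genes the central 90% lay between -0.30 and 0.32, so each of the 10 values was inside it.

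**Figure D4:**
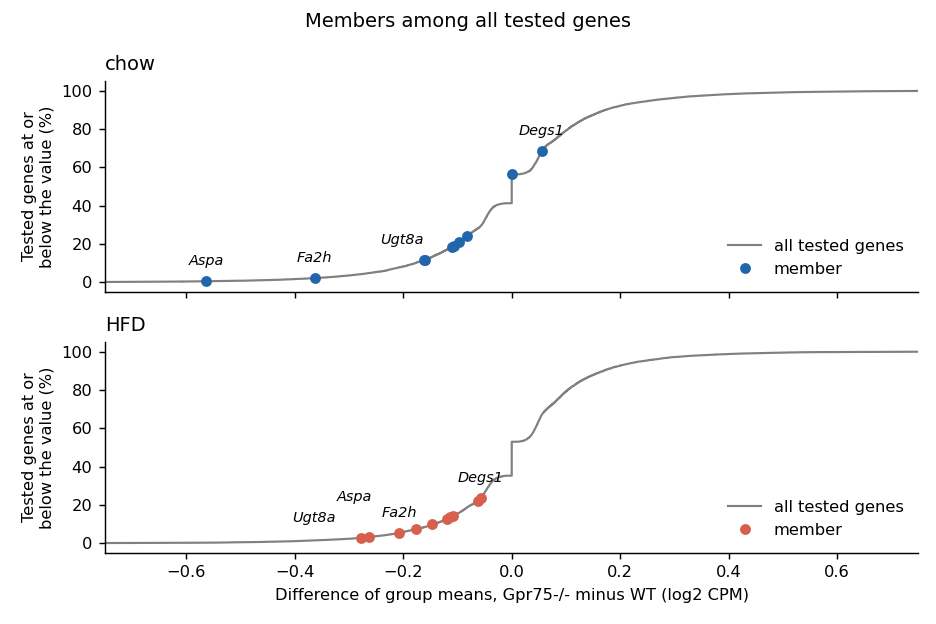
Share of tested genes at or below a given genotype difference (vertical axis, percent) against the difference of group means, *Gpr75-/-* minus WT, in log2 CPM (horizontal axis), on chow (top) and on the HFD (bottom). The grey line is all tested genes, with a step at 0 where the rounded means are equal, and points are the 10 genes, which reach from 0.485% (*Aspa*) to 68.5% (*Degs1*) on chow and from 2.78% (*Ugt8a*) to 23.7% (*Degs1*) on the HFD.

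Myelin protein genes were lower together with the lipid enzyme genes. All 12 on a list that includes *Mbp* and *Mog* had lower group means in *Gpr75-/-* mice on each diet, 8 beyond rounding on chow and 11 on the HFD. Of all tested genes 41.2% and 35.2% were lower at all, and 29.3% and 23.4% beyond rounding. The median difference of the 12 was -0.15 on chow, from -0.50 (*Opalin*) to -0.06 (*Ermn*), and -0.27 on the HFD, from -0.36 (*Opalin*) to -0.07 (*Plekhb1*). *Mbp* was at 0.884 (0.831 to 0.940) on chow and 0.883 (0.830 to 0.940) on the HFD, and *Mog* at 0.864 (0.833 to 0.896) and 0.799 (0.770 to 0.829). On chow 4 of the 10 lipid enzyme genes lay below the median of the myelin proteins, and on the HFD 1 did, *Ugt8a*. Rounding leaves these counts unresolved. The bounds of *Ugt8a*, *Gal3st1* and *Cers2* on chow, and of *Ugt8a* and *Aspa* on the HFD, lay on either side of that median. The difference of *Aspa* on chow, -0.56 (-0.61 to -0.52), had bounds that overlap those of *Opalin* (-0.54 to -0.46).

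Other genes of these pathways and of lipid breakdown lay on both sides of WT. Their counts can be read against all tested genes, of which 29.3% were lower and 30.1% higher beyond rounding on chow, and 23.4% and 32.1% on the HFD. Of 18 tested genes for other steps of sphingolipid synthesis, 2 were lower and 7 higher beyond rounding on chow, and 6 were lower and 3 higher on the HFD, with medians of 0.03 and 0.00. They ranged on chow from *Cers4* (-0.11) to *Sgms2* (0.24), and on the HFD from *Degs2* (-0.35), a second ceramide desaturase, to *Ormdl2* (0.14). Of 13 other genes of fatty acid elongation, 1 was lower and 5 higher beyond rounding on chow, and 1 was lower and 3 higher on the HFD (medians 0.00 and 0.05, from *Hacd4* at -0.18 to *Elovl2* at 0.33 on chow, and from *Elovl2* at -0.11 to *Slc27a4* at 0.10 on the HFD). Of 9 genes of acetylaspartate synthesis, transport and acetate use, 1 was lower and 1 higher on chow, and 2 and 2 on the HFD (medians 0.00, from *Slc13a3* at -0.07 to *Acss1* at 0.09 on chow, and from *Rimkla* at -0.11 to *Slc13a3* at 0.35 on the HFD). Of 14 genes of galactolipid and sphingolipid breakdown, 2 were lower and 6 higher on chow, and 1 and 2 on the HFD (medians 0.03 and 0.02, with *Asah2* lowest at -0.10 on chow, and from *Galc* at -0.08 to *Acer2* at 0.16 on the HFD). Of the 18, 13, 9 and 14 genes of these lists tested on both diets, 1, 0, 0 and 0 were lower beyond rounding on both, the 1 being *Cers6*, where 10% of all genes tested on both diets were.

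**Figure D5:**
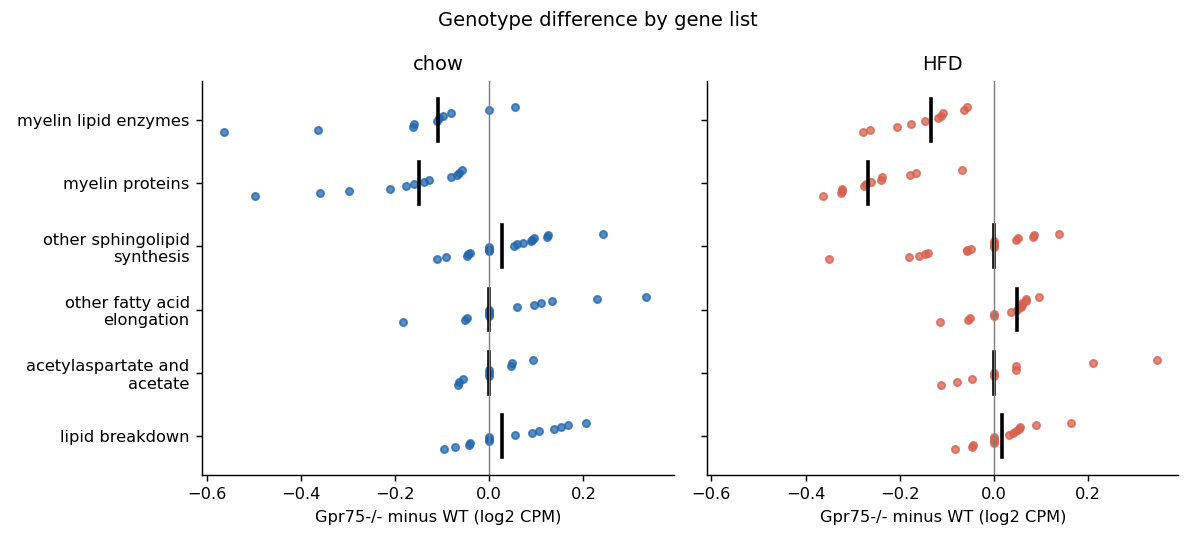
Difference of group means, *Gpr75-/-* minus WT, in log2 CPM (horizontal axis) for each tested gene of 6 lists (rows) on chow (left) and on the HFD (right). Points are genes, their small vertical offsets only separate them, and black bars are medians, which lie at -0.11 and -0.13 for the myelin lipid enzymes and at -0.15 and -0.27 for the myelin proteins.

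Markers of cell types give the setting of these values. Their counts can be read against all tested genes. Beyond rounding, 29.3% of these were lower and 30.1% higher on chow, and 23.4% and 32.1% on the HFD. Of genes tested on both diets, 17.2% were lower on both at all. All 11 hypothalamic markers were detected, with WT means of 2.69 to 245 CPM on chow. All 10 markers of mature oligodendrocytes were lower on both diets, 7 beyond rounding on chow and 10 on the HFD, with summed levels of 11704 CPM in WT and 9994 CPM in *Gpr75-/-* mice on chow, and of 12322 and 10547 CPM on the HFD. Of 7 genes listed as precursor markers, 4 were lower beyond rounding on chow and 5 on the HFD, with none higher. That list includes *Olig1*, *Olig2* and *Sox10*, which mark the whole oligodendrocyte lineage. *Pdgfra* was at 0.967 (0.935 to 1) on chow and 0.875 (0.846 to 0.904) on the HFD. *Cspg4* was at 1.03 (1 to 1.06) and 0.972 (0.945 to 1). Endothelial markers were also low on chow, 5 of 6 beyond rounding with none higher and a median of -0.08, and on the HFD 3 were lower and 1 higher, with a median of -0.07. Beyond rounding, 3 of 8 microglia markers were lower and 2 higher on each diet (medians -0.02 and -0.04). Of 11 neuron markers 2 were lower and 1 higher on chow, and 0 and 1 on the HFD (medians 0.00), and of 8 astrocyte markers 1 and 1 on chow, and 0 and 2 on the HFD (medians 0.03 and 0.00). On chow 6 choroid plexus markers had both group means at or above the filter of 30 normalized counts. All 6 were higher in *Gpr75-/-* mice beyond rounding, from 0.09 (*Prlr*) to 1.26 (*Kl*) with a median of 0.50, and their summed levels were 386 CPM in WT and 569 CPM in *Gpr75-/-* mice. Another 3 passed the filter only through their *Gpr75-/-* mean. All 5 red blood cell markers were also higher on chow, with a median of 0.63 and sums of 277 and 443 CPM. The group means do not carry the whole choroid plexus signal of the chow mice. For *Ttr*, the transthyretin gene of the choroid plexus, the mean normalized count over the 6 mice, scaled to CPM, was 159 CPM beside group means of 5.59 CPM in WT and 12.9 CPM in *Gpr75-/-* mice, or 17.2 times their mean. For *Kl* it was 1.72 times and for *Enpp2* 1.198 times the mean of both groups. The summed values therefore understate it, and how it was spread over single mice is not known here. For the 10 lipid enzyme genes the mean over mice was 0.997 to 1.02 times the mean of both group means on chow, and 0.990 to 1.02 times on the HFD. On the HFD 5 choroid plexus markers had both group means at or above the filter, from *Otx2* at -0.30 to *Prlr* at 0.18, with a median of 0.11 and sums of 407 and 371 CPM, and *Ttr*, whose *Gpr75-/-* mean was under the filter, was at 0.375 of WT. All 5 red blood cell markers were lower there, with a median of -0.20 and sums of 314 and 280 CPM. The hypothalamic markers summed to 695 CPM in WT and 731 CPM in *Gpr75-/-* mice on chow, with 4 of 11 lower and 7 higher, where 43.7% of all tested genes were higher. On the HFD all 11 were higher in *Gpr75-/-* mice, where 47.1% of tested genes were, with sums of 693 and 849 CPM. The part of these differences in the lower values of the lipid enzyme genes was not tested.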

How the data were processed

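Hypothalamus RNA-Seq covered 12 mice in 4 groups, taken from the sample titles. Libraries were prepared with a SMART-Seq mRNA kit and sequenced in pairs of reads of 150 bases. The submitters' processing notes name STAR, featureCounts, StringTie, DESeq2 and the build GRCm39, without versions. Each deposited table gives a signal per gene, the mean of size-factor normalized counts in its 6 mice. The group means were deposited on a log2 scale, rounded to 2 decimals. Compared with the mean normalized count scaled to CPM, they are log2(1 + log2 CPM), and the back-transformed means lay within 0.1 of it for 99.4% of tested genes on chow and 99.5% on the HFD. How the authors averaged mice is not given in the sources used here. Another 9 columns of each table hold the authors' own comparison (fold changes, standard errors, Wald statistics, p-values). No value given here comes from them. The fold changes were viewed once beside the back-transformed differences while the scale was being found.

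Planned count models could not be fitted without values of single mice. In their place, group means were back-transformed to log2 CPM and subtracted, with bounds from 0.005 on either side of each deposited value, and genes were counted past 1.2-fold. All 10 enzyme genes, the ends of each list, *Mbp*, *Mog* and *Gpr75* were named by rule, and some genes the rule names are not reported here. Family members beside an enzyme gene, *Cers6* and the promoter windows shown were chosen after their values were seen. The members, lists and fold were chosen with earlier results of these data known. Exon lengths were merged exons of the basic transcript set of GENCODE M21 (GRCm38), matched by gene identifier for 99.8% of genes on chow. Overlaps between genes were taken from all transcripts of GENCODE M21. The back-transformation and its rounding bounds were tested on simulated group means without spread between mice, which checks the arithmetic alone. Alternatives were centring on the median of all genes, other filters, protein-coding genes alone, pseudocounts and other folds. Python 3.11.15 was used with numpy 2.4.6, pandas 2.3.3 and matplotlib 3.10.9.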

Additional observations from a re-analysis of the deposited data

How the results depend on the processing

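The 8 alternatives bear on sizes and counts and cannot turn the direction of a gene's difference, since the filters, gene sets and folds leave it as it was, the median over all genes was 0, and a pseudocount is added to both means. The pseudocount of 1 CPM was chosen after the data were seen. The number of genes at least 1.2-fold lower in *Gpr75-/-* mice, 2 on chow and 1 on the HFD, was 4 and 5 at 1.1-fold and 0 and 0 at 1.5-fold, and with a pseudocount of 10 CPM it was 0 on the HFD. That pseudocount moved 3 of the 20 values beyond their rounding bounds. Over all tested genes, 740 were lower and 775 higher by 1.2-fold on chow and 511 and 642 on the HFD. With a mean normalized count of at least 100 these were 277, 265, 180 and 174, with a pseudocount of 10 CPM 71, 51, 43 and 19, and with 1 CPM 459, 485, 293 and 333. Among protein-coding genes 448 were lower and 436 higher on chow, and 379 and 371 on the HFD. The median level of the 10 genes was 442 normalized counts per kilobase on chow and 519 on the HFD, or 1019 and 1049 not divided by length. No paired analysis was possible because the deposited tables used here hold group means and no values of single mice. For the same reason DESeq2, size factors and leaving out single mice were not run. Rounding limits a difference to about a step of the last decimal, and the error between mice was not analysed here.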
